A study of Mus musculus with 10 samples.

Results

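The genes described are those of the complement and coagulation factors, 33 of 37 listed genes that were each read by probe sets naming that gene alone. They comprised 15 complement genes and 18 genes of coagulation, fibrinolysis and their inhibitors, read by 45 probe sets, out of 18194 genes read by 34958 such probe sets and 45101 probe sets in all. C4b was read only by a probe set that names several genes, and C3, Cfd and Cpb2 were not analysed here. The study measured RNA of male mice of the outbred ICR strain at 28 months and at 4 months of age, in the liver, the spleen and 3 intestinal segments (jejunum, ileum and distal colon). Mice of the older group were obtained at 8 months and those of the younger group at 2 months, and both were kept on the AIN-93 diet under specific-pathogen-free conditions in single cages, with no other treatment. For each tissue, equal amounts of RNA from the 9 older or the 6 younger animals were combined and hybridised to 1 Affymetrix mouse expression array, which gave 10 arrays.

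Complement is a cascade of plasma proteases and pore-forming proteins that is started by antibody, by lectins on foreign sugars, or by the alternative pathway, and that ends in a membrane attack complex. Coagulation is a parallel protease cascade that turns fibrinogen into fibrin, with plasmin to dissolve the clot and serpins to limit it. Hepatocytes secrete most of these proteins, while macrophages, endothelial cells, fibroblasts and epithelia make some of them locally, and several are acute phase proteins that rise in liver during inflammation.

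Each array was scaled to a trimmed mean of 500 units, and a value below a floor of 111 units, the median of all probe sets over all arrays, was treated as the floor. Each gene was read by its probe set of highest mean signal, and is called measured where the floor was exceeded at either age. Between 48.9% and 50.9% of probe sets lay above the floor on each array, and no scan date or batch is given in the sources used here. Each tissue has 1 array of pooled RNA at each age, so there is no replicate, no spread between animals and no test of age within a tissue. A ratio of 28 over 4 months is therefore given as a description beside the share of all measured genes past the same fold. The only available yardstick within an array pair was the disagreement between probe sets of the same gene, whose median SD on the log2 scale was 0.11 in liver, 0.14 in spleen, 0.11 in jejunum, 0.13 in ileum and 0.14 in distal colon. Because the tissues are bulk samples, fewer cells of a type and less RNA per cell cannot be told apart.

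Markers largely matched the tissue labels. The hepatocyte gene Alb read 50608 units at 28 months and 51037 at 4 months in liver, and at most 175 units on any other array. The B cell gene Ms4a1 read 12818 and 14092 units in spleen at 28 and 4 months. Genes typical of pancreas or of proximal intestine were also read on some other arrays, and the reason was not tested. The acinar elastase Cela2a read 57 units in spleen at 28 months and 8306 at 4 months, and 9811 and 10404 units in jejunum at 28 and 4 months, with all 10 pancreatic acinar genes lower in spleen at 28 months. The proximal enterocyte gene Lct read 92 units in ileum at 28 months and 14054 at 4 months, against 3600 and 12629 units in jejunum.

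**Figure D1:**
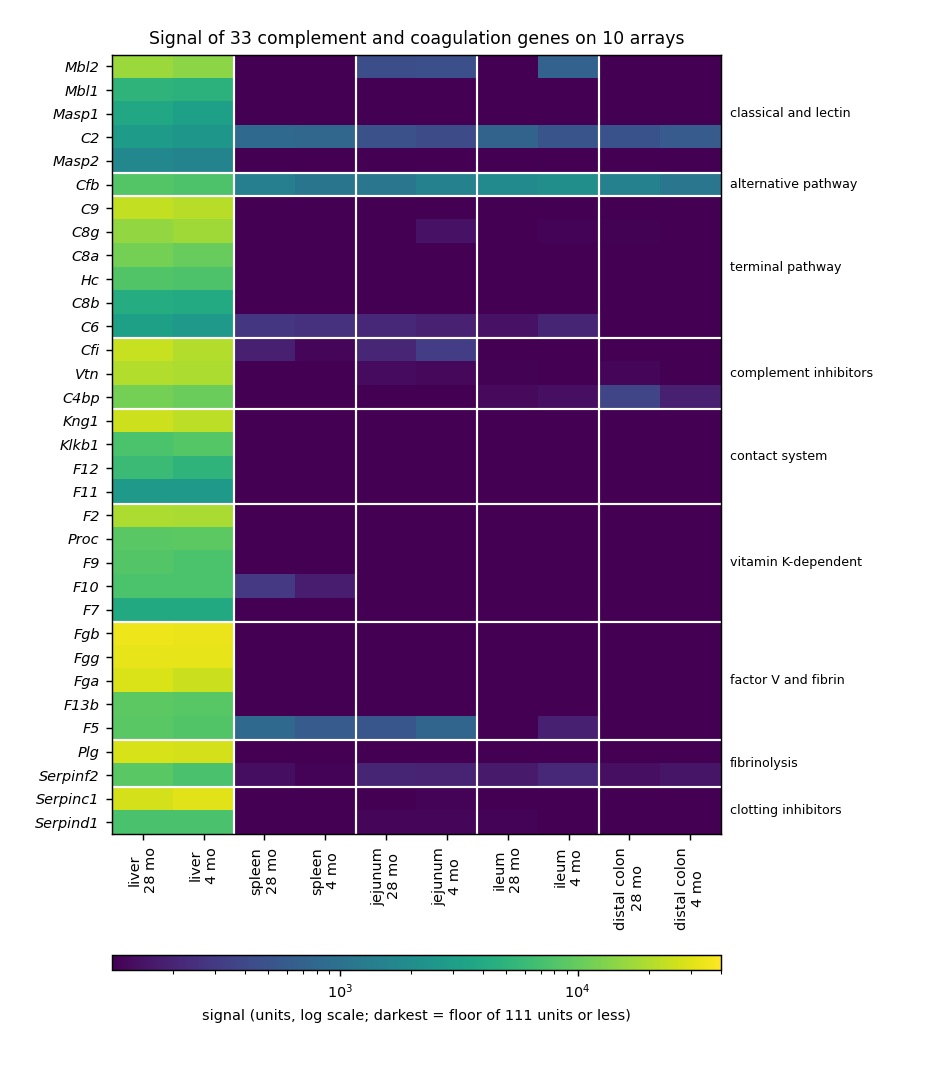
Signal of each of the 33 genes on each of the 10 arrays, on a log colour scale in which the darkest shade is the floor of 111 units or less. Rows are grouped by role and columns by tissue, with 28 months left of 4 months. Colours compare arrays within a row, since probe sets differ in response. Both liver columns are bright in every row, whereas C2, Cfb and Serpinf2 lie above the floor on all 8 other arrays and 20 genes lie at the floor on all 8 by the probe set shown.

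The liver signal exceeded that of every other tissue for each of the 33 genes. In limma's linear model over the 10 arrays, with tissue and age as terms, 33 of 33 were higher in liver than in the mean of the other 4 tissues (Benjamini-Hochberg adjusted p at most 0.00012), where 26.2% of the 13995 genes tested were. The members passed the low-signal filter through the liver itself, so the count is a description of where they are expressed. The estimate ranged between 2.16 on the log2 scale for C2 (SE 0.14) and 8.26 for Fgb (SE 0.08), computed with values below the floor set to it. These p-values measure only the spread between these arrays of pooled RNA, whose tissues came from the same mice. For the 20 genes at the floor on all 8 other arrays, flooring removed the spread there. Their SE and p-values rest on the 2 liver arrays and the variance limma shares between genes, and do not show the spread outside liver.

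The fibrinogen chains, whose protein is the substrate of thrombin, were read above the floor in liver alone. Fgb, the beta chain, read 34705 units at 28 months and 33369 at 4 months in liver, at least 308-fold above every other array, none of which reached the floor. Fgg, the gamma chain, read 31955 and 31986 units at 28 and 4 months. Fga, the alpha chain, read 28518 and 25242 units at 28 and 4 months. The 3 genes lie next to each other on chromosome 3 with no annotated protein-coding gene between them. All 3 differed by less between the ages than between liver and any other tissue. Plasminogen (Plg), the precursor of plasmin, read 28283 and 27369 units at 28 and 4 months, at least 251-fold above every other array.

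The promoters of the fibrinogen chains are shown because the 3 genes are neighbours, were read above the floor in liver alone, and encode textbook acute phase proteins. RefSeq windows on GRCm38.p6 were found for 26 of the 33 genes. Each stretch runs 250 bases before to 20 bases after the start site, 5′ to 3′ on the strand of the gene: chr3:83025903-83026172 (+) for Fga, chr3:83049844-83050113 (-) for Fgb and chr3:83007474-83007743 (+) for Fgg. Capitals mark matches to 4 motifs on either strand: the STAT palindrome TTCNNNGAA, the interleukin 6 element core CTGGGAA, the C/EBP core TTNNGNAAT, and the HNF1 consensus with up to 3 mismatches.
Fga: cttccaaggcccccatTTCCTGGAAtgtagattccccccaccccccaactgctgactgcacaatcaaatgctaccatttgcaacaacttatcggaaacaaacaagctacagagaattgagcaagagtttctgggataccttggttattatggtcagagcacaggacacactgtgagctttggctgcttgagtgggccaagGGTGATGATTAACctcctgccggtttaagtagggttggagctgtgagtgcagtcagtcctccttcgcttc
Fgb: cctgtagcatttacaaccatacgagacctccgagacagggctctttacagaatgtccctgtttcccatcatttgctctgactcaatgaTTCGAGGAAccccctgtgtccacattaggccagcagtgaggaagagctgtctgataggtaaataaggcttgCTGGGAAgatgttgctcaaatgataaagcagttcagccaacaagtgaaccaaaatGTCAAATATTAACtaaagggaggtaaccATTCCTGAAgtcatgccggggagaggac
Fgg: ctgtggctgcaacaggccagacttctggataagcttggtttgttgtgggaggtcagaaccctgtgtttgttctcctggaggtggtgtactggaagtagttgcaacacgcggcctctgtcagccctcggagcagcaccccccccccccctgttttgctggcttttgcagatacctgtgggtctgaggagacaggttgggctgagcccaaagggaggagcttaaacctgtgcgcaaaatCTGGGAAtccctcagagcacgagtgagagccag
Fga held a STAT palindrome beginning at -234 and an HNF1 match at -50. Fgb held a STAT palindrome at -162, the interleukin 6 core at -91, an HNF1 match at -36 and a C/EBP core at -8. Fgg held the interleukin 6 core at -13 and none of the other 3. Over the 27 member windows of 300 bases, an HNF1 match occurred in 11, where 8.33% of all 32851 mouse windows have one. The STAT palindrome occurred in 6 (8.30% of all windows), the interleukin 6 core in 6 (11.1%), the C/EBP core in 7 (11.5%), the HNF4 core CAAAGTCCA with up to 1 mismatch in 5 (8.47%) and an NF-kB consensus in 3 (20.7%). The STAT and interleukin 6 letters overlap in F9, Masp2 and Vtn. A match is a run of letters, and binding was not measured.

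In liver, none of the 33 genes differed by 1.5-fold between 28 and 4 months. The log2 ratios lay between -0.19 for Klkb1 and 0.29 for Masp1, with a median of 0.08, and 26 of 33 were above 0. Over all 12001 genes measured in liver the median was -0.01 and 46.7% were above 0, so the members sat slightly above the middle. In the whole set 4.0% of genes were at least 1.5-fold higher at 28 months and 0.8% at least 1.5-fold lower, with 1.29% and 0.167% past 2-fold, so a count of 0 among 33 is close to that background. As a narrower comparison, 223 other genes had a liver signal at least 10-fold above every other array. Of these, 8.52% were at least 1.5-fold higher and 4.48% at least 1.5-fold lower at 28 months, and 60.1% lay within the range of the members. Their quartiles were -0.18 and 0.20, against 0.04 and 0.18 for the members.

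**Figure D2:**
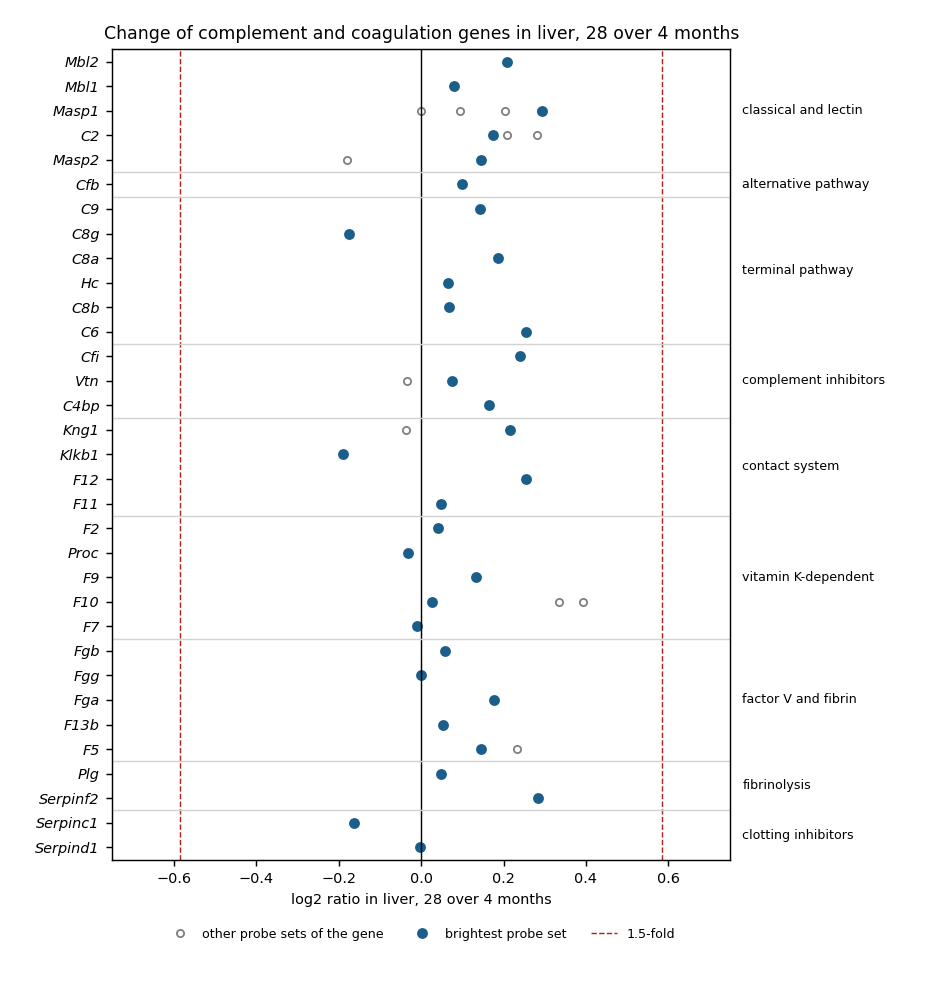
The log2 ratio of 28 over 4 months in liver for each gene, grouped by role. Filled points are the probe set used for the gene, open points are its other probe sets, and dashed lines mark 1.5-fold. Every filled point lies between -0.19 and 0.29, and the open points of F10 lie furthest from its filled one.

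The lectin pathway recognises sugars on microbes. Masp1, its activating protease, read 3802 units at 28 months and 3105 at 4 months, a log2 ratio of 0.29. Its 5 probe sets gave between 0.00 and 0.29, the 0.00 being from a probe set below the floor at both ages. The lowest ratio among the others was 0.09. Mbl2, a mannose-binding lectin, read 16661 and 14425 units at 28 and 4 months (log2 ratio 0.21), and its paralogue Mbl1 read 5157 and 4876 units (0.08). Masp2, the protease that cleaves C4 and C2, read 1731 and 1567 units at 28 and 4 months (0.14), but its other probe set gave -0.18, so its direction is not settled. C2, the protease subunit of the classical and lectin convertase, read 2797 and 2477 units (0.18), with 0.18 to 0.28 over 3 probe sets. By the probe set used, all 5 genes of this arm had ratios above 0.

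Cfb, the protease of the alternative pathway convertase, read 8252 units at 28 months and 7708 at 4 months in liver (log2 ratio 0.10). Among terminal components, C6 read 3115 and 2613 units at 28 and 4 months (0.25). C8a, the alpha chain of C8, read 11617 and 10204 units (0.19), while C8g, the lipocalin chain of the same complex, read 15239 and 17215 units (-0.18). The chains of C8 thus had ratios of opposite sign, with C8b at 4240 and 4047 units (0.07). C9, the pore-forming subunit, read 23472 and 21269 units at 28 and 4 months (0.14), and Hc, which encodes C5, read 8048 and 7695 units (0.06). The inhibitors followed the same narrow range. Cfi, the protease that degrades C3b and C4b, read 24149 and 20443 units at 28 and 4 months (0.24). C4bp, its cofactor, read 11680 and 10425 units (0.16), and Vtn, which blocks the terminal complex, read 20292 and 19280 units (0.07). The other probe set of Vtn gave -0.04. Of the 15 complement genes 14 had ratios above 0 by the probe set used, with a median of 0.14, Masp2 and Vtn changing sign with another.

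The contact system held ratios in both directions. F12, which starts the intrinsic pathway, read 6123 units at 28 months and 5131 at 4 months (log2 ratio 0.25). Klkb1, plasma prekallikrein, read 7467 and 8512 units (-0.19), the lowest ratio of the members, although it is the chromosomal neighbour of F11, which read 2710 and 2623 units (0.05). Kng1, the kininogen, read 25549 and 22014 units (0.21), but its other probe set gave -0.04, and mouse has a near copy, Kng2, that may share signal with it. The vitamin K-dependent factors stayed nearest to 0, between -0.03 and 0.13. F2, prothrombin, read 19454 and 18918 units at 28 and 4 months (0.04), F7 read 3951 and 3978 units (-0.01), and F9 read 8247 and 7517 units (0.13). Proc, the anticoagulant protein C, read 8914 and 9109 units (-0.03). F10 read 7607 and 7464 units (0.03) by the probe set used and up to 0.39 by another, the F10 result thus varying with the probe set.

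Of the fibrin-forming genes, Fga had a log2 ratio of 0.18, Fgb of 0.06 and Fgg of -0.00. F13b, the carrier subunit of the fibrin cross-linking factor, read 8970 units at 28 months and 8645 at 4 months (0.05), and F5, the cofactor of factor X, read 8943 and 8090 units (0.14). The inhibitors of plasmin and thrombin differed in sign. Serpinf2, the plasmin inhibitor, read 8887 and 7305 units at 28 and 4 months (0.28). Serpinc1, antithrombin, read 27529 and 30807 units (-0.16), and Serpind1, heparin cofactor II, read 7335 and 7352 units (-0.00). The 18 coagulation genes had a median of 0.05, with 12 above 0. These ratios are of the same order as the disagreement between probe sets of a gene.

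Over the 5 tissues taken as a block, limma called no member with age and 0.0% of the 13995 genes, with 0 of 33 members and 928 of all genes at an unadjusted p under 0.05. The mean ratio over tissues was furthest above 0 for C4bp, 0.22 (95% interval -0.22 to 0.65, adjusted p = 0.78 in limma), and furthest below 0 for Mbl2, -0.50 (-1.56 to 0.56, adjusted p = 0.78 in limma). The interval of Fgb ran between -0.15 and 0.17. For genes at the floor outside liver, these means average 1 liver ratio with 4 zeros.

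Other genes of these pathways did not all share the narrow range in liver. Of 23 measured complement genes outside the member list, 2 were at least 2-fold and 6 at least 1.5-fold higher at 28 months, with a median log2 ratio of 0.23. C1qb, a chain of the C1q recognition protein, read 2047 units at 28 months and 686 at 4 months (1.58). Itgb2, the beta chain of complement receptor 3, read 677 and 249 units (1.45), C1qc read 1330 and 668 units (0.99), and the phagocyte receptor Vsig4 read 3844 and 1989 units (0.95). These are genes of macrophages and other leukocytes, and 9 of 10 macrophage markers, Vsig4 being one of them, also had ratios above 0, their summed signal being 19548 units at 28 months and 12242 at 4 months; the part of macrophage number in the complement values was not tested.

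Of 19 measured coagulation genes outside the member list, 1 was at least 2-fold and 4 at least 1.5-fold higher, with a median of 0.25. Fgl1, a hepatocyte fibrinogen-like protein, read 15317 units at 28 months and 5830 at 4 months (1.39). Thbd, the endothelial thrombin receptor, read 215 and 107 units, the younger value below the floor (0.96). Vwf, the platelet-tethering factor, read 273 and 164 units (0.73), and Pros1, the cofactor of protein C, read 2119 and 1314 units (0.69). Among 6 genes of the vitamin K cycle and factor secretion, Nqo1, a quinone reductase, was 1.5-fold higher or more at 300 and 168 units (0.84), and the median was -0.05. The carboxylase and reductase of the cycle, Ggcx and Vkorc1, had ratios of 0.03 and -0.15.

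Acute phase genes differed far more between the ages in liver than the fibrinogen chains. Of 17 measured, 7 were at least 2-fold and 10 at least 1.5-fold higher at 28 months, with a median log2 ratio of 0.78. Lcn2, the siderophore-binding lipocalin, read 9366 units at 28 months and 188 at 4 months (5.64). Orm2, an orosomucoid, read 3747 and 201 units (4.22), Saa2, a serum amyloid A, read 21785 and 1243 units (4.13), and Saa1 read 32579 and 3372 units (3.27). Socs3, a feedback inhibitor of STAT3 signalling, read 1988 and 859 units (1.21). Of the acute phase genes 15 had ratios above 0, with Crp (-0.03) and Hamp (-0.21) below. Of 16 measured hepatocyte secreted proteins that are neither complement nor coagulation, none passed 1.5-fold, and their median was 0.02. Hpx (0.41) and Itih4 (0.34) were on both lists. Among 15 transcription factors of liver, Onecut1 was at least 2-fold lower at 1062 and 2725 units (-1.36), Foxa1 read 1011 and 1964 units (-0.96), Cebpd read 1373 and 787 units (0.80), Stat3 read 2343 and 1566 units (0.58), and the median was 0.02.

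**Figure D3:**
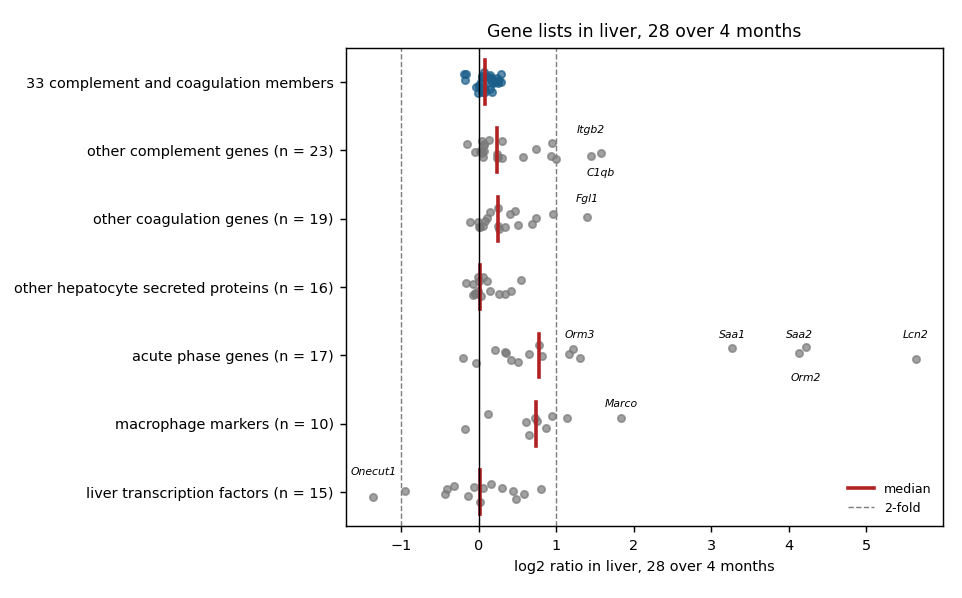
The log2 ratio of 28 over 4 months in liver for the 33 genes and for 6 other gene lists, 1 point per measured gene, with the median as a bar and dashed lines at 2-fold. The 33 genes cluster near 0, while 7 of 17 acute phase genes lie past the upper 2-fold line.

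Outside the liver, 20 of the 33 genes were below the floor on all 8 arrays by the probe set used, among them the fibrinogen chains, Plg, F2, F7, F9, C8a, C9 and Hc. Masp1 is counted with them, but another of its probe sets, one whose name marks several transcripts, read between 139 and 180 units on all 8. Of the other 13, 1 was measured in 1 further tissue, 4 in 2, 5 in 3 and 3 in 4, and 11 lay above the floor at both ages in at least 1. Only C2, C6, Cfb, F5 and Mbl2 exceeded 221 units, or 2 floors, at both ages in a tissue other than liver. Alb stayed at most at 175 units there, whereas Cps1 and Ttr, other genes on the hepatocyte list, read up to 15262 units in jejunum and 4954 in distal colon.

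**Figure D4:**
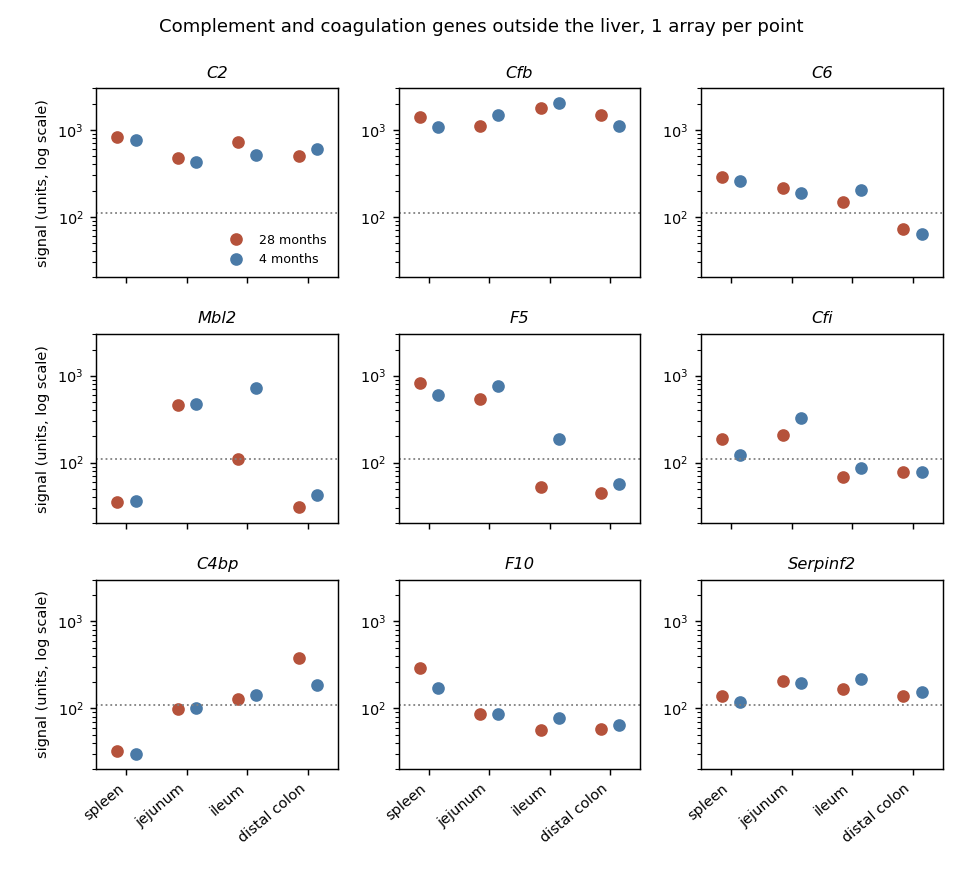
Signal in spleen, jejunum, ileum and distal colon of 9 genes, on a log axis. Each point is 1 array, 28 months left of 4 months, and the dotted line is the floor of 111 units. C2 and Cfb lie above the floor everywhere, Mbl2 only in jejunum and in ileum at 4 months, and F10 only in spleen.

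The convertase proteases C2 and Cfb, chromosomal neighbours on chromosome 17, were read on every array. Cfb read 1405 units at 28 months and 1086 at 4 months in spleen, 1114 and 1483 in jejunum, 1803 and 2053 in ileum, and 1463 and 1109 in distal colon. Its extrahepatic signal was between 13.5% and 26.6% of that in liver at the same age, and no ratio reached 1.5-fold. C2 read 824 and 766 units at 28 and 4 months in spleen, 481 and 429 in jejunum, 718 and 512 in ileum, and 494 and 599 in distal colon. Its other probe sets read lower in intestine, at 213 and 181 or 228 and 212 units in jejunum. In distal colon they read 233 and 150 or 233 and 179 units, so the level of C2 there depends on the probe set. The distal colon ratio of C2 was -0.28 by the probe set used, one whose name marks possible cross-hybridisation, and 0.63 and 0.38 by the others, so its direction there is not settled.

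Terminal component C6 read 284 units at 28 months and 256 at 4 months in spleen, 213 and 188 in jejunum, 149 and 205 in ileum, and lay below the floor in distal colon at both ages. F5 read 825 and 605 units in spleen, 532 and 761 in jejunum, and 52.5 and 185 in ileum, and lay below the floor in distal colon. In jejunum the probe set used for F5 gave a ratio of -0.52 and the other gave 0.03. F10 was read outside liver only in spleen, at 295 units at 28 months and 173 at 4 months (log2 ratio 0.77). Its other probe sets gave 0.60 and 0.00 in spleen, the last with both ages at the floor. The platelet genes Pf4, at 10643 and 7741 units, and the other 5 of 6 measured genes on the platelet list also had ratios above 0 in spleen, with Gp6 below the floor and a summed signal of 26186 and 19548 units, and the part of platelets in the F5 and F10 values was not tested.

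Mbl2 had the largest difference between ages of any member in any tissue. It read 109 units, below the floor, in ileum at 28 months and 712 units at 4 months, at least 6.44-fold lower, while jejunum read 459 and 467 units. Mbl1 lay below the floor outside liver. Lct, given above, was also lower in ileum at 28 months. So was Apoa4, an apolipoprotein of proximal enterocytes, at 5978 units at 28 months and 35041 at 4 months in ileum. Of the 7 measured genes on the enterocyte list, 4 had ratios below 0 in ileum and 3 above. In jejunum the log2 ratios of Lct and Apoa4 were -1.81 and -0.63, while that of Mbl2 was -0.025. On the correlation of all probe sets, the ileum array was at r = 0.975 with jejunum at 28 months and at r = 0.987 with it at 4 months. A difference in age and a difference in the stretch of intestine sampled cannot be told apart on these arrays. F5 was at least 1.67-fold lower in ileum at 28 months by the probe set used. Its other probe set gave -0.29, with the older value below the floor, which does not reach 1.5-fold. By the probe sets used, Mbl2 and F5 were the only 2 of 10 measured members at least 1.5-fold lower in ileum, where 4.17% of genes were. Mbl2 was the only one past 2-fold, where 1.66% were. None was at least 1.5-fold higher (5.22% of genes) or 2-fold higher (0.888%).

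The promoters of Mbl2 and Mbl1 are shown side by side because only Mbl2 was read in small intestine. The stretches are chr19:30232678-30232947 (+) and chr14:41151206-41151475 (+) on GRCm38.p6, from RefSeq, with capitals marking the HNF1 matches.
Mbl2: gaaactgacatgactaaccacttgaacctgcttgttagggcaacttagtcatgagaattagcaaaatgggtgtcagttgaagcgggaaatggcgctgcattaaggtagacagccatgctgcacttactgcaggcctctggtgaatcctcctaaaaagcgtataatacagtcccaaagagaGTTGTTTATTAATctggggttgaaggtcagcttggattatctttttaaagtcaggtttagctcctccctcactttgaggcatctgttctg
Mbl1: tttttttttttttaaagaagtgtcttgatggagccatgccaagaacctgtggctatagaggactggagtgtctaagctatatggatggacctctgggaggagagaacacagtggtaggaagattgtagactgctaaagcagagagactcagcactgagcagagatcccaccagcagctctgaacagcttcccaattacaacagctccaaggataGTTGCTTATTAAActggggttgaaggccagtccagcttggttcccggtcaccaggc
Both held 1 HNF1 match, beginning at -70 in Mbl2 and at -36 in Mbl1, and neither held the STAT, interleukin 6 or C/EBP letters. The longest run the windows share, ctggggttgaagg, is 13 bases long and directly follows the HNF1 match in both.

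Among the members that inhibit complement, C4bp read 383 units at 28 months and 185 at 4 months in distal colon, a log2 ratio of 1.05 or 2.07-fold, and 129 and 141 units in ileum. It was the only 1 of 6 measured members past 2-fold or 1.5-fold higher in distal colon, where 0.51% and 2.57% of genes were. None was 2-fold or 1.5-fold lower there (0.526% and 2.35%). Cfi read 187 and 122 units at 28 and 4 months in spleen (0.61) and 207 and 322 units in jejunum (-0.64). In spleen all 9 measured members had ratios above 0 by the probe set used, with a median of 0.23. Over all genes 51.9% were above 0, with a median of 0.01. However, Serpinc1 and Serpind1 were over the floor at 28 months only and had ratios of 0.01. C2 was at 0.10 by the probe set used and at -0.10 by another, so its direction in spleen is not settled. Cfi and F10 passed 1.5-fold there (3.19% of genes), and none was 2-fold higher (0.528%), 1.5-fold lower (1.95%) or 2-fold lower (0.411%). In jejunum 4 of 11 were above 0, against 55.9% of all genes. Cfi was the only one 1.5-fold lower (3.04%), none was 2-fold lower (1.02%), 1.5-fold higher (2.01%) or 2-fold higher (0.252%). The 10 pancreatic acinar genes summed to 1641 units at 28 months and 52311 at 4 months in spleen, and to 107107 and 111731 units in jejunum. Of the jejunum sums, Zg16 made up 31708 and 36272 units. It also read 39822 and 38667 units in ileum and 35896 and 39352 in distal colon, so the jejunum sum is not particular to acinar cells. The part of the acinar genes in these ratios was not tested. Serpinf2 read 137 and 117 units in spleen, 204 and 197 in jejunum, 169 and 218 in ileum, and 140 and 155 in distal colon at 28 and 4 months. Serpinc1, Serpind1, Vtn and C8g read at most 148 units on any array outside liver, close to the floor.

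Some other genes of the pathways passed 2-fold outside liver. Higher at 28 months were 1 of 19 measured complement genes in ileum, and 1 of 16 coagulation genes in spleen, 1 of 17 in jejunum and 1 of 17 in ileum. Of the vitamin K list, 1 of 5 was lower in ileum and 1 of 6 in distal colon. Of all measured genes, 0.528% were 2-fold higher in spleen, 0.252% in jejunum and 0.888% in ileum. In ileum 1.66% were 2-fold lower, and in distal colon 0.526%. Colec10, a collectin, read 465 units at 28 months and 227 at 4 months in ileum (log2 ratio 1.03). F13a1, the catalytic subunit of factor XIII and a macrophage and platelet gene, read 901 and 444 units in spleen (1.02) and 231 and 114 in ileum (1.03). Vwf read 391 and 195 units in jejunum (1.01). Vkorc1 read 1693 and 4639 units in ileum (-1.45), and Nqo1 read 175 and 377 units in distal colon (-1.11). The acute phase genes Lcn2 (1.79) and Hp, haptoglobin (1.51), were higher in spleen at 28 months, at 1285 and 372 units and at 1082 and 380 units. Socs3, named after its values were seen, read 2284 and 997 units in spleen, also more than 2-fold higher. By contrast, Saa2 (324 and 764 units, -1.24) and Saa1 (3206 and 7148 units, -1.16) were lower in ileum, and Saa3 (104 and 464 units, -2.07 against the floor) and Socs3 (351 and 916 units, -1.38) were lower in distal colon.

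Between the extrahepatic tissues, with both ages of a tissue as its 2 arrays, limma called 5 of 33 members between spleen and the mean of the 3 intestinal segments. F5 was higher in spleen by 1.71 on the log2 scale (SE 0.24, adjusted p = 0.00085), C6 by 0.78 (SE 0.16, adjusted p = 0.0045) and C2 by 0.58 (SE 0.14, adjusted p = 0.011), with values below the floor set to it. The C2 difference is by the probe set used, whose intestinal signals exceeded those of its other probe sets. F10 lay below the floor on all 6 intestinal arrays and was at least 2.04-fold higher in spleen (adjusted p = 0.0022 in limma). Serpinf2 was lower in spleen, at -0.49 (SE 0.15, adjusted p = 0.027). Among all genes 32.9% were called higher and 31.9% lower in spleen, but 20 of the 33 members were at the floor on every array of this comparison and could not be called, so the shares are not set against each other. Without the ileum, 6 were called. Mbl2, below the floor in spleen, was lower there by -1.03 on the log2 scale with values set to the floor (SE 0.10, adjusted p = 0.00064 in limma). By the intestinal signals before flooring, the fold was at least 1.16. Of the 4 intestinal arrays left, only the 2 of jejunum were above the floor.

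Between small intestine and distal colon 3 members were called. F5 and C6 lay below the floor on both distal colon arrays. F5 was at least 2.26-fold higher in small intestine, where 3 of its 4 arrays were above the floor (adjusted p = 0.0060 in limma), and C6 was at least 1.69-fold higher (adjusted p = 0.013 in limma). The fold of F5 uses signals before flooring, and its p-value belongs to the estimate with values set to the floor, 1.45 on the log2 scale (SE 0.25). C4bp was lower in small intestine, at -1.12 on the log2 scale with jejunum set to the floor (SE 0.25, adjusted p = 0.014). Among all genes 14.8% were called higher and 24.9% lower. The 20 members at the floor on every array outside liver, and F10, could not be called here, so the shares are not set against each other. Mbl2, also below the floor in distal colon, did not pass (adjusted p = 0.066 in limma). With jejunum alone as the small intestine, limma called 5, adding Mbl2 (at least 4.18-fold higher, adjusted p = 0.00051) and Cfi (at least 2.33-fold higher, adjusted p = 0.034), both below the floor in distal colon. With the floor raised to the 75th percentile of all signals, limma called 1 member between spleen and intestine and 0 between small intestine and distal colon, so both sets of calls depend on signals near the floor.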

How the data were processed

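Pooled total RNA of 5 tissues at 28 and 4 months was measured on 10 arrays, 1 per tissue and age. The deposited values are log2 signals, per the value table's own range, and MAS5 and affy are named in the submitters' processing notes, while scaling and log base are not given in the sources used here. Base 2 was taken from the values. Values were turned back to linear signal, scaled to a mean of 500 units with 2% trimmed at each end (factors 2.42 to 2.57), and floored at 111 units. Probe sets naming 1 gene in the platform annotation were kept, and the brightest stood for the gene. Precision is limited by how few arrays there are.

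The 37 genes and the other lists were chosen with earlier results of these data known. Named genes were all members, up to 4 genes per pathway list with the largest ratio in liver, and up to 2 per list past 2-fold in another tissue. Socs3 in liver and spleen, Ggcx in liver and several marker genes were named outside that rule. Genes at the floor on all 10 arrays have no variance and were left out, leaving 13995. Tissue and age effects were fitted with limma 3.58.1 in R 4.3.3, with Benjamini-Hochberg adjustment and a threshold of 0.05, and the fit was tested on simulated data. Tables were made with Python 3.11.15 and pandas 2.3.3. Alternatives covered the floor, scaling, probe set choice, fold threshold and each tissue left out. Promoter windows came from RefSeq, GRCm38.p6.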

Additional observations from a re-analysis of the deposited data

Results flagged for a closer look

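Cfi, the protease that degrades C3b and C4b, had ratios of opposite sign in spleen and jejunum. The log2 ratio of 28 over 4 months was 0.61 in spleen, at 187 units at 28 months and 122 at 4 months, and -0.64 in jejunum, at 207 and 322 units. The spleen ratio minus the jejunum ratio was 1.25. With 1 array per tissue and age the difference was not tested.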

How the results depend on the processing

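In liver, the 33 genes stayed between -0.23 and 0.35 over 8 settings, none passed 1.5-fold in any, and 5 changed sign in at least 1. The limma calls for liver over other tissues and for age over 5 tissues kept their counts, apart from 30 of 30 in liver where probe sets that may read several transcripts were left out. Outside liver, the cases at least 2-fold lower (1 in the reported setting) were 2 with the floor at the 25th percentile or with no floor and 16 units added, 0 with the floor at the 75th percentile or without the ileum, and 3 at 1.5-fold. The cases at least 2-fold higher (1 as reported) were 0 with the floor at the 75th percentile, with 16 units added, after quantile normalisation or at 3-fold, and 3 at 1.5-fold. Members called by limma between spleen and intestine (5 as reported) were 11 with the floor at the 25th percentile, 1 with it at the 75th and 14 with no floor. Between small intestine and distal colon (3 as reported) they were 7, 0 and 7 under the same settings and 5 without the ileum, a setting added after seeing the data. Mbl2 in ileum ranged between -2.71 and -0.57 over 8 settings, the last value with the floor at the 75th percentile. C4bp in distal colon ranged between 0.99 and 1.08 over 7 settings. C4bp lay below the 75th percentile floor at both ages and had no ratio there, so the ranges are not set against each other. Pooling limits every value, and signals near the floor limit most extrahepatic ones, those of Cfb excepted. Those of C2 in jejunum and distal colon lay between 150 and 233 units by its other probe sets.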
